A study of Mus musculus with 6 samples.

Results

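The genes described here encode the enzymes, transporters and control proteins that carry glucose to pyruvate, lactate and the mitochondrion. The 39 members were chosen by gene name and pathway from the 27179 genes listed in the deposited expression table, and fall into 3 arms. Glycolysis has 21 members, from the glucose transporters to lactate dehydrogenase. The pentose phosphate pathway has 7, and pyruvate entry has 11, namely the pyruvate dehydrogenase complex, its kinases and phosphatase and the mitochondrial pyruvate carrier. All 39 were detected in every library and all 39 passed the filter applied before testing (mean RPKM over the libraries of 1 or more).

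RNA was sequenced from YFP+Mac-1+c-Kit+ leukemia-initiating cells (LICs) of bone marrow in the mouse MLL-AF9 model of acute myeloid leukemia, in 3 libraries labelled Asic3-null (Asic3-/-) and 3 labelled WT (Asic3+/+), which the text names by their labels. All 6 came from C57BL/6 mice given as 8 weeks old, and the comparison asks how loss of Asic3, an acid-sensing ion channel subunit, changes LICs. In both groups the leukemia was started by a retrovirus carrying MLL-AF9 and a YFP reporter in lineage-negative fetal liver cells, which were then grown in irradiated C57BL/6 recipients, so both groups carry the fusion gene and the labelled difference is a germline deletion in the donor cells. The labels number the libraries but do not say that each is a separate mouse, so p-values measure the spread between these libraries, which may be technical.

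Glycolysis splits a glucose into a pair of pyruvate molecules in the cytosol, and lactate dehydrogenase turns pyruvate into lactate. The pentose phosphate pathway leaves glycolysis at glucose 6-phosphate: its oxidative branch makes NADPH, which feeds lipid synthesis and antioxidant defence and, in phagocytes, the respiratory burst, and its non-oxidative branch makes ribose for nucleotides and returns carbon to glycolysis. Pyruvate dehydrogenase commits pyruvate to the TCA cycle, and its kinases switch it off. Hematopoietic stem cells are known for a glycolytic metabolism in a poorly oxygenated niche, and the HIF factors and MYC are known to drive many glycolytic genes.

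The values are RPKM, reads scaled by gene length and sequencing depth, so levels of different genes can be set side by side. The inferred library size was 1947168 to 2381861 reads, so that for a 2 kb gene 1 read gives 0.210 to 0.257 RPKM. The members had 4 to 3915 recovered reads in a library, with a median of 202, and Ldhb alone averaged under 10. Asic3 itself ran against the labels, with 4.11 to 9.12 RPKM under the Asic3-null label and 0.435 to 1.85 RPKM under the WT label. The 4 Y-linked genes checked were at 0 in every library labelled Asic3-null and summed to 81.4 to 118 RPKM under the WT label, so that genotype and sex of the cells cannot be told apart. Of 13 neutrophil granule genes, 10 fell under the Asic3-null label (adjusted p under 0.05, limma), beside 2.82% of all tested genes. Mpo and Prtn3 were not called. Nor was Ctsg, which ran the other way (mean 1394 against 1029 RPKM, log2 fold change 0.43). The 13 genes summed to 3829 to 5105 RPKM against 8089 to 10120 RPKM. Of 9 monocyte and macrophage genes, 5 were lower, with sums of 431 to 512 RPKM against 711 to 849 RPKM. The gate marker Itgam (Mac-1) was lower, at 12.3 to 16.9 RPKM against 55.1 to 89.5 RPKM (adjusted p = 0.00072 from limma). Kit, the other gate marker, was at 14.4 to 20.4 RPKM against 8.97 to 15.3 RPKM (log2 fold change 0.64) and was not called. The 7 erythroid genes checked summed to 0.972 to 2.41 RPKM under the Asic3-null label and 3.07 to 10.8 RPKM under the WT label, without overlap. The 7 T cell genes summed to 1.40 to 2.10 against 0.456 to 1.28 RPKM, also without overlap. Both sums lie near the detection floor, with at most 5 reads for any of these genes in a library, so they show no difference in cell types. Of the T cell genes, Cd3e, Cd4 and Cd8a were at 0 in all 6 libraries. The 7 B cell genes summed to 95.6 to 170 RPKM against 126 to 177 RPKM, nearly all of it Cd79b and Ighm, and Ms4a1 was at 0 throughout. The part of these cells in the member values was not tested. In bulk RNA, fewer cells of a type and less RNA per cell cannot be told apart.

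The glycolysis genes ranged widely in level in these LICs, from a mean of 2.08 RPKM for Ldhb to 570 RPKM for Pkm. The 3 members with the highest mean level over the 6 libraries were Pkm, the pyruvate kinase gene that makes both the M1 and M2 forms, Aldoa, the main aldolase outside liver and brain, and Gpi1, glucose-6-phosphate isomerase. Pkm ran from 510.01 to 633 RPKM, Aldoa from 402 to 618 RPKM and Gpi1 from 430.1 to 523 RPKM. Tkt, transketolase of the non-oxidative branch, followed at 370 to 513 RPKM. Next by mean came Pgls, 6-phosphogluconolactonase of the oxidative branch, at 284 to 601 RPKM. Pyruvate entry lay lower, with Pdha1, the E1 alpha subunit of pyruvate dehydrogenase, as its highest member at 68.0 to 89.1 RPKM. The lowest members were Ldhb at 1.31 to 3.32 RPKM, Pdp1, the catalytic subunit of pyruvate dehydrogenase phosphatase, at 2.06 to 3.32 RPKM and Slc2a3, the transporter GLUT3, at 2.51 to 7.65 RPKM.

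**Figure D1:**
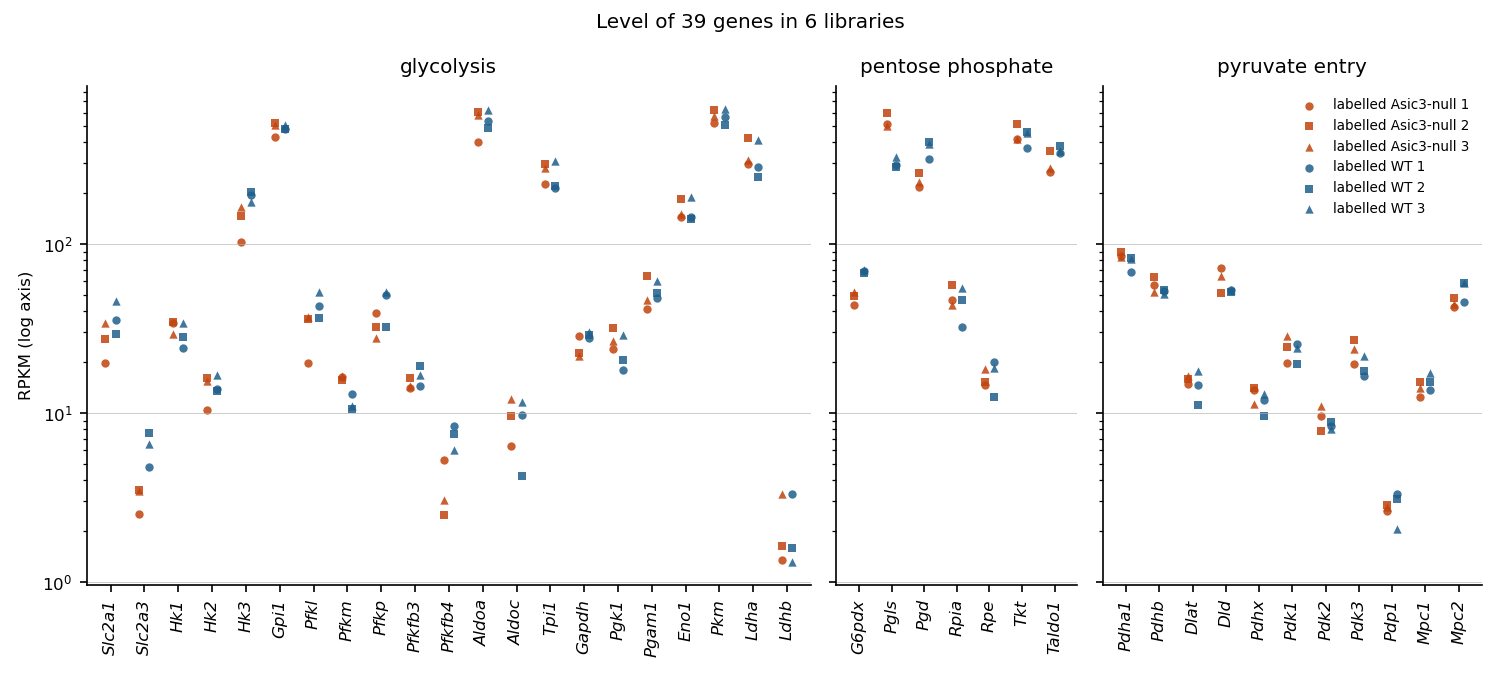
RPKM on a log axis for each of the 39 genes in the 3 arms, with 1 point for each library, coloured by its label and shaped by its number. Levels run from 1.31 RPKM (Ldhb) to 633 RPKM (Pkm); the 2 groups are apart for Pgls, Pgd and G6pdx and overlap for most other genes.

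The summed RPKM of an arm did not set the groups apart for glycolysis and the pentose phosphate pathway. Over the 21 glycolysis genes it was 2387, 3116 and 2868 RPKM under the Asic3-null label and 2735, 2586 and 3220 RPKM under the WT label. Over the 7 pentose phosphate genes it was 1524, 1854 and 1549 RPKM against 1451, 1657 and 1671 RPKM. Over the 11 pyruvate genes it was 349, 360.0 and 352 RPKM against 314, 332 and 348 RPKM, where the lowest library labelled Asic3-null was about level with the highest labelled WT. These sums are dominated by their most abundant genes and were not tested.

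Of the 39 members, 1 was higher and 1 was lower under the Asic3-null label at an adjusted p under 0.05 (limma on log2(RPKM + 1), Benjamini-Hochberg over 12037 tested genes). Over all tested genes, 0.523% were called higher and 2.82% were called lower, and 1 gene of 39 is 2.56%, near the share of lower genes and above that of higher genes. Both called members, Pgls and Pgd, belong to the oxidative branch of the pentose phosphate pathway, and they moved in opposite directions. At an unadjusted p under 0.05, 2 members were higher and 5 lower, beside 6.43% and 9.45% of all tested genes. The groups did not overlap for 3 members that were higher and 5 that were lower, beside 11.2% and 11.4% of all tested genes. The median log2 fold change (Asic3-null over WT labels) was -0.06 over glycolysis, -0.05 over the pentose phosphate pathway and 0.13 over pyruvate entry, and 0.03 over all tested genes. The first 2 of these changed sign with 1 library left out (-0.17 to 0.07 and -0.22 to 0.018), and the third ran from 0.060 to 0.14, lowest without WT replicate 2.

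**Figure D2:**
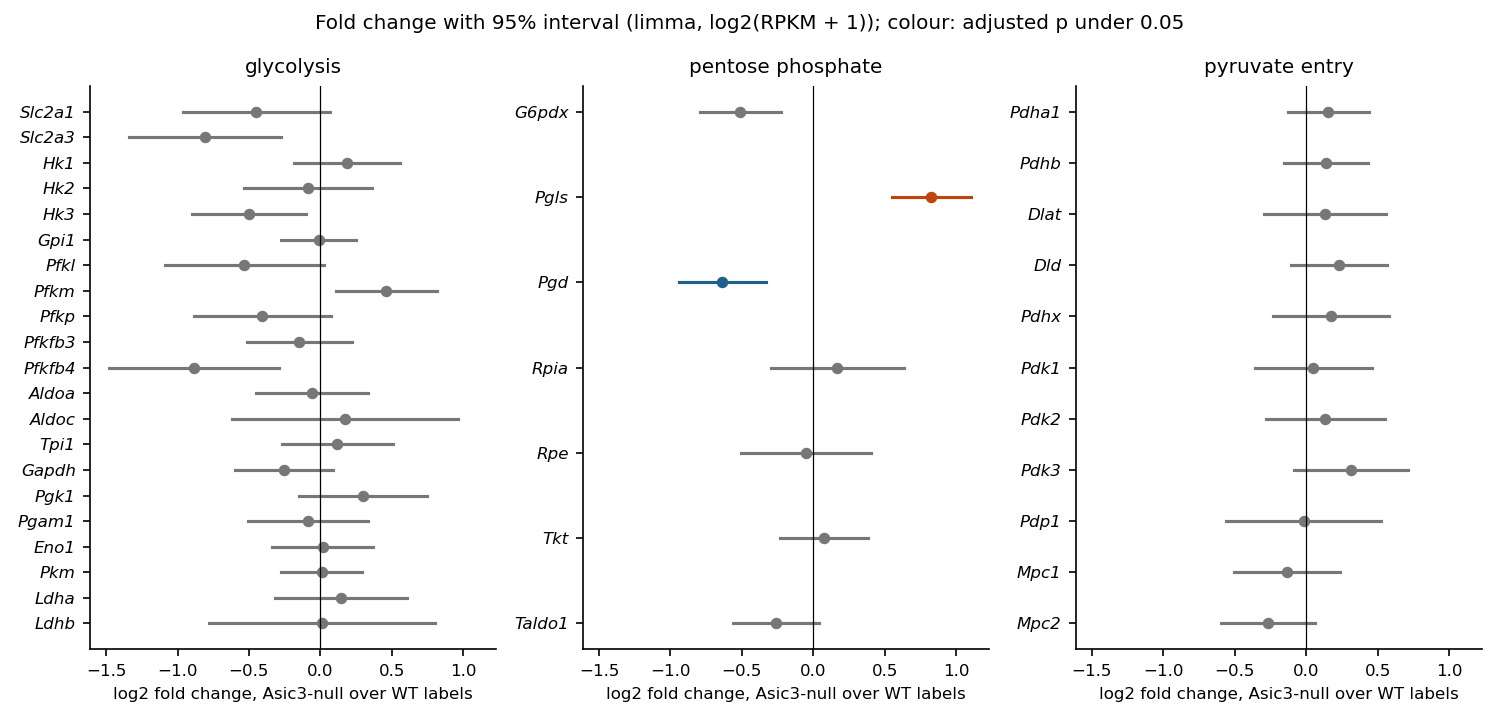
Log2 fold change of the libraries labelled Asic3-null over those labelled WT with its 95% interval from limma, for each gene by arm; coloured genes passed an adjusted p of 0.05. Only Pgls (0.83) and Pgd (-0.64) are coloured, and the intervals of most other genes cross 0.

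The oxidative branch has 3 steps, and the groups did not overlap for any of its 3 genes, 1 higher and 2 lower, beside 11.2% and 11.4% of all tested genes. G6pdx encodes glucose-6-phosphate dehydrogenase, the committed and rate-limiting step and the first source of NADPH. Pgls hydrolyses the lactone that this step makes. Pgd encodes 6-phosphogluconate dehydrogenase, which makes the second NADPH and ribulose 5-phosphate.

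Pgls (Entrez 66171, chr8:71592184-71596267 on the plus strand of GRCm38) had 515, 601 and 500.1 RPKM under the Asic3-null label and 294, 284 and 330 RPKM under the WT label. Every library labelled Asic3-null was above every library labelled WT, and the closest 2 libraries of the groups were 500.1 and 330 RPKM. The group means, 538 ± 54.3 and 303 ± 23.8 RPKM (SD, n = 3 in each group), gave a 1.77-fold higher level (95% interval 1.47 to 2.14) on the log2(RPKM + 1) scale. The log2 fold change was 0.83 with a standard error of 0.12 and an adjusted p of 0.00748 from limma. The call held under all 13 alternatives tried, with an adjusted p between 0.00352 and 0.0453. The exact permutation test gave a two-sided p of 0.10, the smallest that 3 libraries against 3 allow. The recovered reads behind these values were 1037 to 1263 under the Asic3-null label and 489 to 689 under the WT label. Of the annotated exon bases of Pgls, 20.6% overlap exons of the neighbouring gene Niban3 on the same strand. Niban3 had 8.46 to 9.40 RPKM against 4.60 to 7.86 RPKM, and its part in the Pgls values was not tested. No annotated gene outside this locus held a stretch of at least 200 bases with 95% identity to the Pgls transcript. This leaves the overlap with Niban3 aside.

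Pgd (Entrez 110208, chr4:149149991-149166705 on the minus strand of GRCm38) had 217, 264 and 234 RPKM under the Asic3-null label and 321, 404 and 390 RPKM under the WT label. All 3 libraries labelled Asic3-null lay below all 3 labelled WT. The group means, 238 ± 23.9 and 372 ± 44.8 RPKM (SD, n = 3 in each group), gave a 1.56-fold lower level, and the log2 fold change was -0.64 (95% interval -0.94 to -0.33, adjusted p = 0.0383 from limma). This call was close to the threshold: it was lost without each of the 3 libraries labelled Asic3-null and without WT replicates 2 and 3 (adjusted p 0.0538 to 0.146 from limma), and it was kept without WT replicate 1 (adjusted p = 0.0472 from limma). It was also lost with the replicate block, with no filter on low values and with no intensity trend (adjusted p 0.0638, 0.0739 and 0.108 from limma). The direction was the same in every alternative, with log2 fold changes between -0.74 and -0.57. As recorded for the cells as a whole, most neutrophil granule genes checked were lower in the same libraries, and their part in the lower Pgd was not tested.

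G6pdx (Entrez 14381, chrX:74409483-74428880 on the minus strand of GRCm38) had 43.6, 49.4 and 51.9 RPKM under the Asic3-null label and 69.4, 67.3 and 70.6 RPKM under the WT label. The groups did not overlap, and the WT libraries were within 3.22 RPKM of each other. The log2 fold change was -0.51 (95% interval -0.79 to -0.23) and the adjusted p was 0.0664 from limma, so that G6pdx did not pass the test. Over the alternatives the log2 fold change ran from -0.56 to -0.44 and the adjusted p from 0.0503 to 0.196, never under the threshold. Of its annotated exon bases 13.6% overlap Ikbkg on the opposite strand, and the library kit does not mark strand. Ikbkg had 8.41 to 9.71 RPKM over the 6 libraries, and its part in the G6pdx values was not tested.

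Within a library, the mRNA level of Pgls lay above that of Pgd under the Asic3-null label and below it under the WT label. The Pgls level divided by the Pgd level was 2.37, 2.28 and 2.14 under the Asic3-null label and 0.917, 0.703 and 0.845 under the WT label. The Pgls level divided by the G6pdx level was 11.8, 12.1 and 9.63 against 4.23, 4.22 and 4.67. The G6pdx level divided by the Pgd level was 0.201, 0.187 and 0.222 against 0.217, 0.167 and 0.181, and these groups overlapped. These ratios were chosen after the values were seen and were not tested. Pgls and Pgd were called in opposite directions, so the difference in their ratio is no separate result. They do not depend on the scaling of a library, since both genes of a ratio come from the same library.

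**Figure D3:**
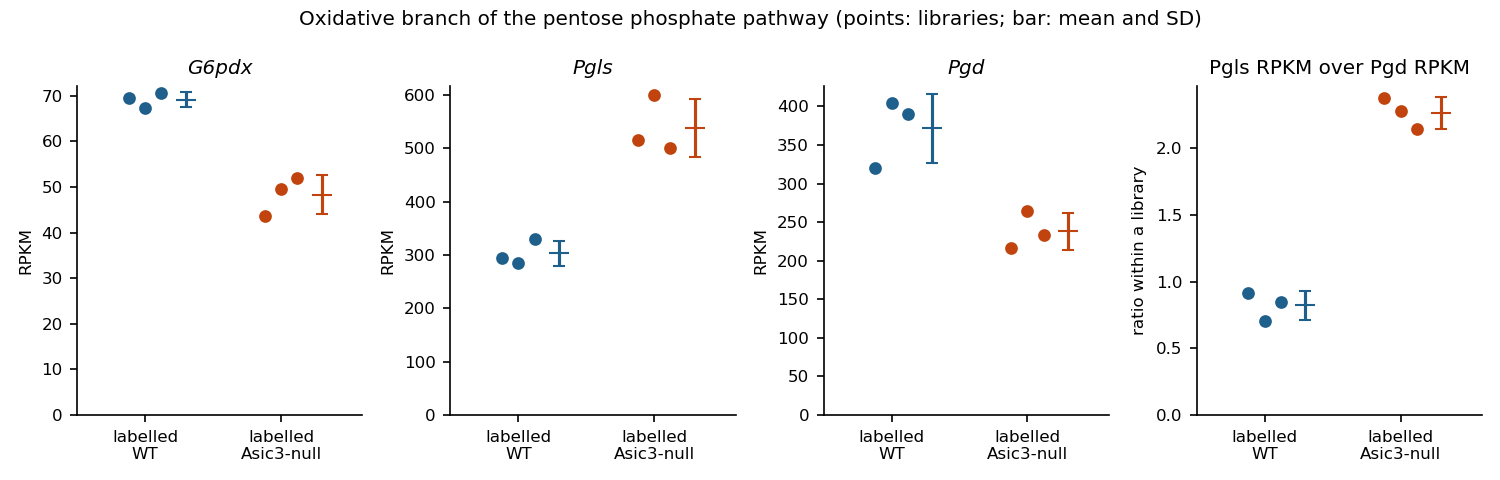
RPKM of the 3 oxidative-branch genes, and the ratio of Pgls to Pgd within a library, with 1 point for each library and a bar for the mean and SD of each group (n = 3), on axes from 0. G6pdx and Pgd sit lower and Pgls higher under the Asic3-null label, and the ratio is 2.14 to 2.37 there against 0.703 to 0.917 in the libraries labelled WT.

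The 4 genes of the non-oxidative branch did not pass the test, and the groups overlapped for each. Tkt had 420, 513 and 418 RPKM under the Asic3-null label and 370, 460 and 454 RPKM under the WT label, a log2 fold change of 0.07 (95% interval -0.23 to 0.38). Taldo1, transaldolase, had 268, 355 and 283 RPKM against 346, 382 and 354 RPKM, a log2 fold change of -0.26 (95% interval -0.56 to 0.04). Its highest library labelled Asic3-null lay above 2 of the 3 labelled WT. Rpia and Rpe, the isomerase and the epimerase that interconvert the pentose phosphates, had log2 fold changes of 0.17 and -0.05.

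Promoter sequences from RefSeq (GRCm38.p6) were at hand for 37 of the 39 members; Slc2a3 and Pdp1 had no entry. The 250 bases before each start were searched on both strands, over all listed starts of a gene, for ACGTG, the core that the HIF factors are known to bind, for CACGTG, the E-box that MYC is known to bind and that holds ACGTG on both strands, and for TGACAG, the core bound by the MEIS factors. ACGTG was found for 10 of 20 glycolysis genes, 0 of 7 pentose phosphate genes and 3 of 10 pyruvate genes, and for 18.5% of all genes with a promoter entry and 16.6% of all promoters. CACGTG was found for 3, 0 and 1 of them, and for 6.86% of all genes. TGACAG was found for Pfkl, Dlat and Mpc1, 3 of the 37, and for 18.0% of all genes. A match describes the letters in this window and shows no bound site, and a gene without a match may be reached from elsewhere.

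The stretches of 150 bases before the start are printed for the 3 oxidative-branch genes, on which the 2 calls fell, and for Ldha, the member with the most matches; capitals mark ACGTG on either strand. The 250 bases before the Ldha start printed here held 3 separate matches, 2 of them the full CACGTG. The second Ldha start in the table held 0, as did the starts of G6pdx, Pgls and Pgd. The stretches lie at chr7:46845654-46845803 (plus strand, Ldha), chrX:74428881-74429030 (minus strand, G6pdx), chr8:71592034-71592183 (plus strand, Pgls) and chr4:149166706-149166855 (minus strand, Pgd).
Ldha: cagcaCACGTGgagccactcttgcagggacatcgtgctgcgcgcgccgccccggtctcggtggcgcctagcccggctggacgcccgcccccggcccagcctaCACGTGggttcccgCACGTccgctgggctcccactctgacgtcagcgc
G6pdx: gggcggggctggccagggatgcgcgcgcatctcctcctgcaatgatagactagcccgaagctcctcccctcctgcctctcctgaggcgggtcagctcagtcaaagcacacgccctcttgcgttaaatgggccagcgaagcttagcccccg
Pgls: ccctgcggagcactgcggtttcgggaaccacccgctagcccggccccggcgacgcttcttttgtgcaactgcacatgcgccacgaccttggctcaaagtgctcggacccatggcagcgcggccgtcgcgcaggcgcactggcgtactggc
Pgd: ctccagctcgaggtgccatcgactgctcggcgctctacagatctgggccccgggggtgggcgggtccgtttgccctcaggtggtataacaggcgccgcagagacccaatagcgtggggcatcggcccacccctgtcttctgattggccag

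None of the 21 glycolysis genes passed the test, by limma on log2(RPKM + 1) or by limma-voom on the recovered reads; at an unadjusted p under 0.05, 1 was higher and 3 were lower, beside 6.43% and 9.45% of all tested genes. Among the 37 members not called, 34 had a 95% interval on the log2(RPKM + 1) scale within a 2-fold change in both directions, and Slc2a3, Pfkfb4 and Pfkl reached 2-fold. The pseudocount narrows the intervals of low genes: with a pseudocount of 0.1 the count was 32, with Aldoc and Ldhb also reaching 2-fold, and with a library left out it was 30 to 32.

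None of the genes of glucose uptake and the hexokinase step passed the test. Slc2a3 and Hk3 were lower without overlap under the Asic3-null label, as were 11.4% of all tested genes. Slc2a3 had 2.51, 3.50 and 3.44 RPKM there and 4.81, 7.65 and 6.51 RPKM under the WT label, with no overlap. Its log2 fold change was -0.81 (95% interval -1.34 to -0.28, adjusted p = 0.123 from limma), from 23 to 61 reads a library. Slc2a1, the transporter GLUT1 and by far the more abundant of the pair, had 19.8, 27.2 and 33.9 RPKM against 35.5, 29.3 and 46.1 RPKM, which overlapped (log2 fold change -0.45, 95% interval -0.97 to 0.07); leaving out Asic3-null replicate 1 gave -0.25, and leaving out WT replicate 3 gave -0.28.

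Hk3, the hexokinase typical of myeloid cells, made up 69.6% to 83.7% of the hexokinase RPKM in every library. It had 102, 147 and 165 RPKM under the Asic3-null label and 195, 203 and 178 RPKM under the WT label, with no overlap. The log2 fold change was -0.50 (95% interval -0.90 to -0.10, adjusted p = 0.212 from limma), and without Asic3-null replicate 1 it was -0.30 (adjusted p = 0.395 from limma). Most of the neutrophil granule and monocyte genes checked were lower in the same libraries, and their part in the Hk3 difference was not tested. Hk1 and Hk2, the broadly expressed and the inducible forms, had log2 fold changes of 0.19 (95% interval -0.18 to 0.56) and -0.09 (95% interval -0.54 to 0.36).

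At phosphofructokinase, the main control point of glycolysis, none of the 3 subunit genes passed the test. Pfkm, the muscle-type subunit, had 16.3, 15.7 and 16.5 RPKM under the Asic3-null label and 12.9, 10.6 and 10.9 RPKM under the WT label. These groups did not overlap, and the log2 fold change was 0.46 (95% interval 0.11 to 0.81, adjusted p = 0.190 from limma). Pfkl, the liver-type subunit, was at 19.9 to 36.9 RPKM against 36.6 to 52.2 RPKM (log2 fold change -0.53, 95% interval -1.08 to 0.02, and -0.25 without Asic3-null replicate 1), and Pfkp, the platelet-type subunit, at 27.7 to 39.01 RPKM against 32.1 to 52.1 RPKM. Pfkm thus made up 21.7%, 18.7% and 20.3% of the summed subunit RPKM under the Asic3-null label and 12.3%, 13.4% and 9.48% under the WT label. The difference of the means was 8.52 percentage points, in an exact permutation test with a two-sided p of 0.10, the smallest it can give, and a Benjamini-Hochberg adjusted p of 0.40 over the 14 shares compared. The share of Slc2a1 in its pair, 88.6% to 90.8% against 79.3% to 88.1%, was the other one without overlap, at the same exact permutation p.

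Pfkfb3 and Pfkfb4 encode the enzymes that make and remove fructose 2,6-bisphosphate, the strongest activator of phosphofructokinase. Pfkfb4 had 5.27, 2.50 and 3.04 RPKM under the Asic3-null label and 8.35, 7.49 and 6.03 RPKM under the WT label. The groups did not overlap, with a log2 fold change of -0.88 (95% interval -1.48 to -0.29) and an adjusted p of 0.132 from limma. It rests on 20 to 59 reads a library. Pfkfb3 was at 14.1 to 16.1 RPKM against 14.4 to 18.9 RPKM and overlapped (log2 fold change -0.15, 95% interval -0.52 to 0.22).

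The groups overlapped for every gene from aldolase to lactate dehydrogenase, with log2 fold changes from -0.25 for Gapdh to 0.30 for Pgk1. Ldha, lactate dehydrogenase A, had 297, 424 and 315 RPKM under the Asic3-null label and 286, 250.4 and 411 RPKM under the WT label. One library of each group was high and the other two were low, so that the log2 fold change of 0.15 had a 95% interval from -0.32 to 0.61. Pkm had 521, 618 and 574 RPKM against 563, 510.01 and 633 RPKM, with a log2 fold change of 0.01 (95% interval -0.27 to 0.29). Its groups covered almost the same range.

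Among the other genes of this stretch, Aldoa (-0.06), Tpi1, triosephosphate isomerase (0.12), Pgam1, phosphoglycerate mutase (-0.09), Eno1, alpha enolase (0.01), and Gpi1 upstream of them (-0.01) all had intervals crossing 0. With 1 library left out, Tpi1 ran from 0.025 to 0.29 and Pgam1 from -0.27 to 0.054. Eno1 and Pkm changed sign under median-ratio scaling, at values close to 0. Ldha supplied 98.9% to 99.7% of the lactate dehydrogenase RPKM, and Aldoa 98.0% to 99.1% of the aldolase RPKM, in every library. Ldhb and Aldoc, the heart-type and brain-type forms, were thus a trace in both groups.

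Gapdh, glyceraldehyde-3-phosphate dehydrogenase, was listed well below Tpi1, the step before it, and close to Pgk1, the step after it. It had 28.4, 22.5 and 21.8 RPKM under the Asic3-null label and 27.8, 28.8 and 30.2 RPKM under the WT label, a log2 fold change of -0.25 (95% interval -0.60 to 0.09), while Tpi1 had 216 to 311 RPKM and Pgam1, further down, 41.02 to 65.1 RPKM. Copies with at least 95% identity over 200 bases or more were found for Gapdh in 78 other annotated genes, 75 of them pseudogenes, covering 94.2% of its transcript. Pgk1, phosphoglycerate kinase, was at 18.0 to 31.7 RPKM and had 4 such copies over 68.8% of its transcript. Eno1 and Ldha had 4 such copies each, over 72.8% and 55.0% of their transcripts, at 141 to 190 RPKM and 250.4 to 424 RPKM. How the authors' counting treated reads that match several places is not given in the sources used here, so the levels of these genes are uncertain, and the part of the copies was not tested. Outside Gapdh and Pgk1, 9 further members had at least 1 such copy. Another 28 members, among them Pgls, Pgd and G6pdx, had none away from their own locus.

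**Figure D4:**
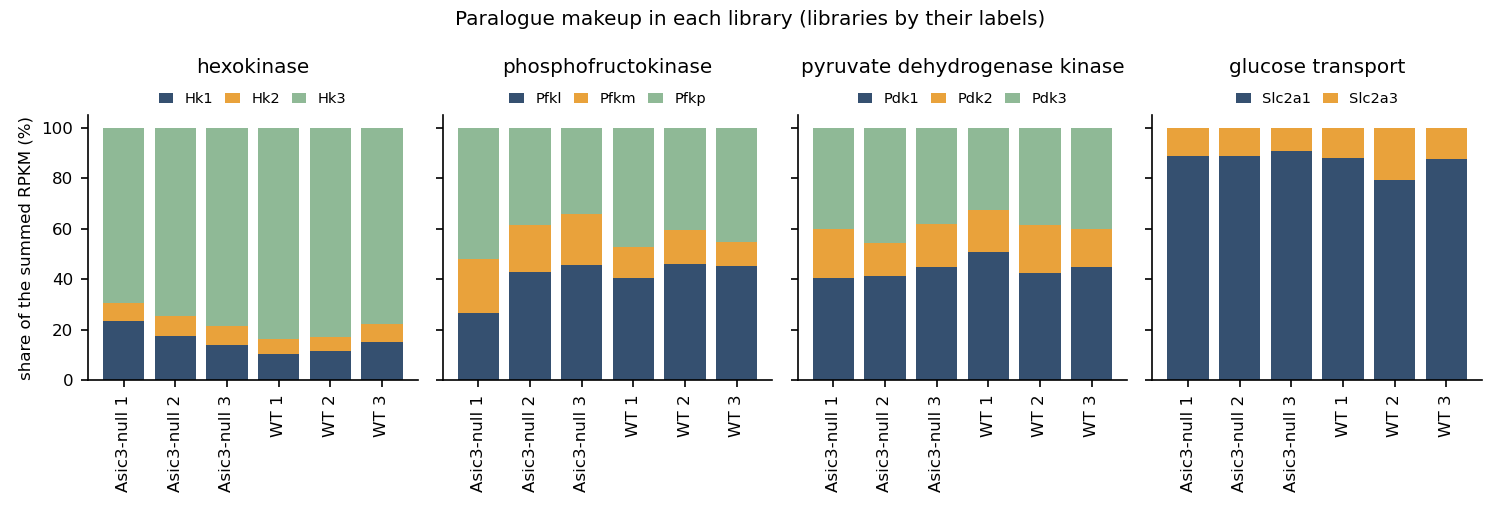
Share (%) of the summed RPKM taken by each paralogue of hexokinase, phosphofructokinase, pyruvate dehydrogenase kinase and the glucose transporters, stacked to 100% for each library. Hk3 takes 69.6% to 83.7% of hexokinase everywhere, and Pfkm takes 18.7% to 21.7% of phosphofructokinase under the Asic3-null label against 9.48% to 13.4% under the WT label.

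Inside each group the glycolysis genes tended to move together from library to library. WT replicate 3 was the highest of the WT libraries for 15 of 21 glycolysis genes (71.4%), compared with 31.0% of all tested genes. Asic3-null replicate 2 was the highest of its group for 12 of 21 (57.1%), compared with 34.7% of all tested genes, and Asic3-null replicate 1 was the lowest of its group for 16 of 21 (76.2%), compared with 32.1%. These counts were the same under median-ratio scaling. The Asic3-null part of this pattern was not particular to glycolysis. Asic3-null replicate 2 was highest for 71.4% of pentose phosphate and 63.6% of pyruvate entry genes, and Asic3-null replicate 1 lowest for 57.1% and 54.5%. For WT replicate 3 as the highest, the shares in those arms were 42.9% and 36.4%. Genes of a pathway are not independent, so the counts describe these libraries and were not tested. For Ldha the gap inside a group, 250.4 to 411 RPKM among WT labels, was wider than the gap between the group means, 346 and 316 RPKM.

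**Figure D5:**
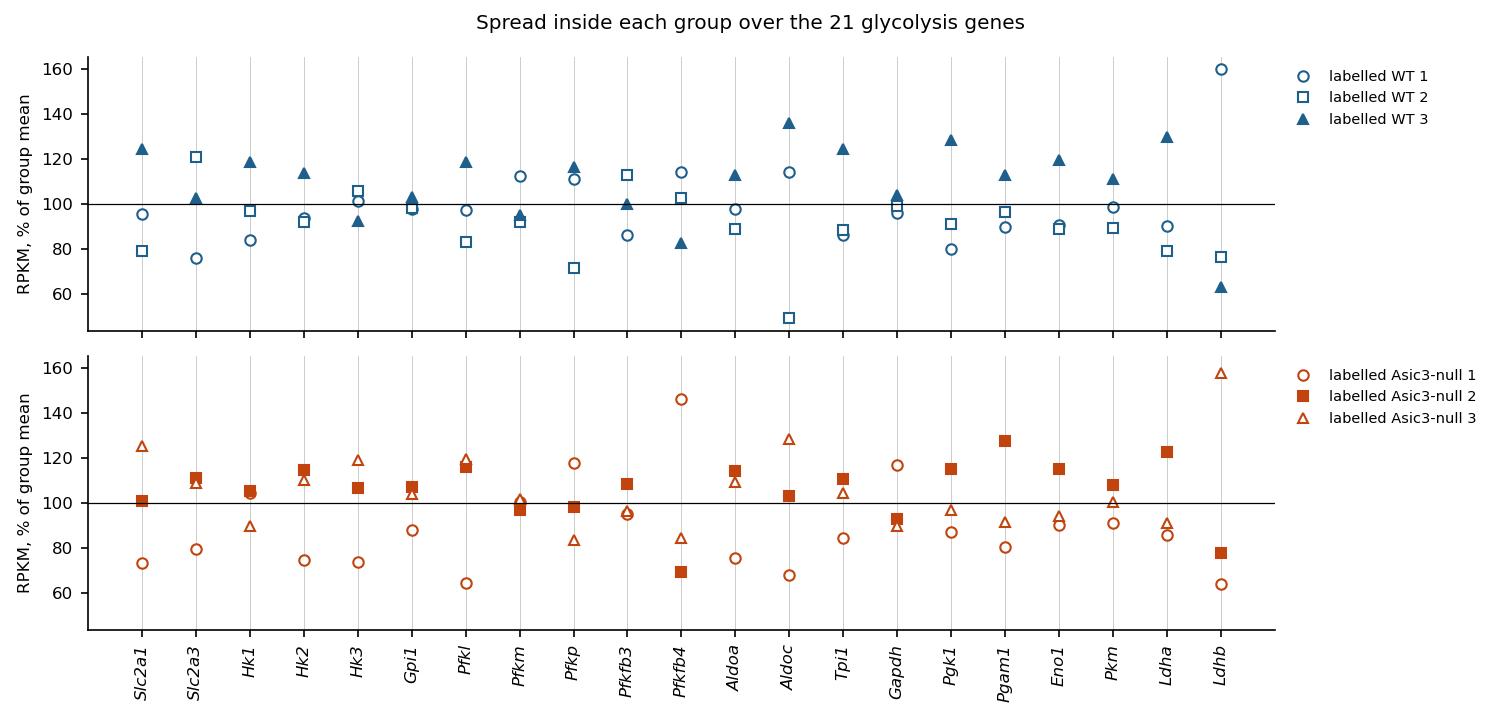
Each library's RPKM as a percent of its group mean for the 21 glycolysis genes, with WT labels above and Asic3-null labels below; filled symbols mark WT replicate 3 and Asic3-null replicate 2. The filled symbols are the highest of their group for 15 and 12 genes, and open circles in the lower panel, Asic3-null replicate 1, are the lowest for 16.

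No gene of pyruvate entry passed the test, and none had an unadjusted p under 0.05. The 5 subunit genes of the pyruvate dehydrogenase complex all had positive log2 fold changes: Pdha1 0.16, Pdhb (E1 beta) 0.14, Dlat (E2) 0.13, Dld (E3) 0.23 and Pdhx (the E3-binding protein) 0.17. Every one of their 95% intervals crossed 0, and 6566 of the 12037 tested genes were also above 0. With 1 library left out, the lowest values were -0.030 for Dlat and 0.060 for Pdhx (both without WT replicate 2), 0.067 for Pdha1 (without WT replicate 1) and 0.061 for Pdhb (without Asic3-null replicate 2). Pdha1 had 84.9, 89.1 and 83.9 RPKM under the Asic3-null label and 68.0, 82.2 and 81.8 RPKM under the WT label, the only 1 of these 11 genes without overlap (11.2% of all tested genes were higher without overlap), by a margin smaller than the spread inside either group. Its adjusted p was 0.589 from limma.

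Among the inhibitory kinases, Pdk1 and Pdk3 shared most of the RPKM and Pdk2 supplied 13.1% to 19.6% of it. Pdk3 had 19.4, 27.1 and 24.1 RPKM under the Asic3-null label and 16.6, 17.7 and 21.8 RPKM under the WT label, which overlapped (log2 fold change 0.31, 95% interval -0.09 to 0.71). Pdk1 and Pdk2 had log2 fold changes of 0.05 (95% interval -0.36 to 0.46) and 0.13 (95% interval -0.28 to 0.55). Mpc1 and Mpc2, the subunits that together form the pyruvate carrier of the inner mitochondrial membrane, had -0.13 (95% interval -0.51 to 0.24) and -0.27 (95% interval -0.60 to 0.06), and Pdp1 had -0.02 (95% interval -0.56 to 0.53).

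The 4 X-linked members were looked at together because the Y-linked genes separated the groups. Pgk1 had 24.0, 31.7 and 26.7 RPKM under the Asic3-null label and 18.0, 20.5 and 28.8 RPKM under the WT label. Its log2 fold change was 0.30 (95% interval -0.15 to 0.75), and 0.16 to 0.49 with 1 library left out. Together with Pdha1 (0.16) and Pdk3 (0.31), 3 of the 4 had positive values and G6pdx (-0.51) a negative one. None of the 4 was called, and sex cannot be told apart from the genotype label for any of them.

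Genes of neighbouring pathways were read from lists of 96 genes, 70 of them tested, of which 1 was called higher and 2 lower, beside 0.523% and 2.82% of all 12037 tested genes. Slc2a6, a glucose transporter family member of the lysosome known from activated macrophages, had 8.09, 10.8 and 11.96 RPKM under the Asic3-null label and 31.6, 30.5 and 32.8 RPKM under the WT label. It was the lowest of the 19 other glycolysis genes tested, with a log2 fold change at -1.55 (adjusted p = 0.00196 from limma), and remained called without any 1 library. The next by p were Pgam2, the muscle mutase (log2 fold change -1.05, adjusted p = 0.153 from limma), and Adpgk, an ADP-dependent glucokinase, which were not called. With the replicate block Pgam2 passed (adjusted p = 0.0418 from limma).

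Pygl, the glycogen phosphorylase of liver and leukocytes, had 85.1, 68.3 and 83.2 RPKM under the Asic3-null label and 144, 132 and 132 RPKM under the WT label. The log2 fold change was -0.79 (adjusted p = 0.0134 from limma), and it no longer passed once Asic3-null replicate 3, WT replicate 1 or WT replicate 2 was left out (adjusted p 0.0536, 0.0610 and 0.0552 from limma). It was the only gene called of 16 glycogen and glucose-6-phosphate genes tested. Most monocyte and granule genes checked were lower in the same libraries, and their part in the Slc2a6 and Pygl differences was not tested.

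Among 12 tested regulators of these pathways, Meis1, a homeobox factor of stem cells and MLL leukemia, was the 1 called. It had 21.7, 28.2 and 35.3 RPKM under the Asic3-null label and 14.2, 14.9 and 14.0 RPKM under the WT label, with no overlap. The log2 fold change was 0.91 (adjusted p = 0.0367 from limma), and of the 6 fits that leave out a library only the one without Asic3-null replicate 1 kept the call (adjusted p 0.0281 from limma without it, and 0.102 to 0.136 without any other). Meis1 did not pass with the replicate block, no filter or no intensity trend (adjusted p 0.0761, 0.0644 and 0.0628 from limma). Txnip, which restrains glucose uptake, had 204, 75.8 and 88.5 RPKM against 180.0, 222 and 154 RPKM, a log2 fold change of -0.72 that did not pass (adjusted p = 0.332 from limma). One library decided this: without Asic3-null replicate 1 Txnip passed, with a log2 fold change at -1.15 (adjusted p = 0.0262 from limma), and without Asic3-null replicate 2 it was at -0.44 (adjusted p = 0.576 from limma).

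None of 11 tested genes of ribose and nucleotide sugar supply, of 8 other pyruvate genes and of 4 lactate transport genes was called by limma. At an unadjusted p under 0.05, 1 of these 23 was lower, beside 9.45% of all tested genes, and limma-voom on the recovered reads called 0 of them. The lowest p in each list belonged to Nadk, the cytosolic NAD kinase (log2 fold change -0.34), Me2, a mitochondrial malic enzyme (-0.42), and Slc16a3, the lactate exporter MCT4 (-0.64), each lower under the Asic3-null label and none called. Leaving out 1 library moved Slc16a3 to between -0.90 and -0.36, nearest 0 when Asic3-null replicate 1 was left out.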

How the data were processed

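RNA was read from 6 libraries, grouped by the genotype in the labels. Per the labels, libraries followed the TruSeq RNA v2 protocol, and the submitters' processing notes name CASAVA 1.8.2, TopHat2 2.0.12 and GRCm38. The authors deposited 1 table of RPKM per gene; the counter and annotation are not given in the sources used here. The members and gene lists were chosen with earlier results of these data known.

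The 12037 genes averaging 1 RPKM or more were transformed to log2(RPKM + 1) and fitted by limma 3.58.1 under R 4.3.3 (moderated, intensity trend, group the only term), with Benjamini-Hochberg adjustment and a threshold of 0.05, after a test on simulated data. Whole reads were recovered for all 16825 genes above 0 within 0.0001 reads, and served limma-voom as an alternative. They carry no molecular identifiers and hold the same differences between libraries as the RPKM. Near-identical copies came from blastn 2.17.0 of GENCODE transcripts. Paralogue shares were compared by exact permutation tests (two-sided). Values per library are given for called members, those with an unadjusted p under 0.05, the highest of each arm, Ldha, Pkm, Slc2a1 and the X-linked members; for other lists, called genes and those of lowest p; a few more were named after their values were seen. Alternatives were a pseudocount of 0.1, no filter, a filter at 5 RPKM, scaling by median ratios, no trend, a replicate block, each library left out, limma-voom and shares of reads.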

Additional observations from a re-analysis of the deposited data

How the results depend on the processing

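Of the 39 members, 24 never changed direction, 23 of them over all 13 alternatives and Slc2a3 over the 12 that kept it, since it did not pass the filter at 5 RPKM. Of the other 15, 13 changed sign only when a library was left out. Pgls was called in each of the 13 alternatives, so 1 member was called higher throughout. The count of lower members, 1 for Pgd, was 0 with no filter on low values, 0 with no intensity trend, 0 with the replicate block and 0 to 1 with a library left out. For the other pathway genes, the count called higher, 1 for Meis1, was 0 with no filter, 0 with no intensity trend, 0 with the replicate block and 0 to 1 with a library left out, and the count called lower was 1 to 3 with a library left out and 3 with the replicate block, which added Pgam2. Same-numbered libraries did not deviate together (correlations 0.06, -0.06 and -0.12, against -0.07 to 0.14 for the other pairs). Such correlations cannot show whether libraries were prepared in pairs, so the meaning of the numbers was not settled. The replicate block left Pgls called (log2 fold change 0.83, adjusted p = 0.0406 from limma). Of all tested genes the block called 33 higher and 213 lower, against 63 and 340 without it. With each library left out, the median log2 fold change ran from -0.17 to 0.07 over glycolysis, from -0.22 to 0.018 over the pentose phosphate pathway and from 0.060 to 0.14 over pyruvate entry. The lowest values of the last 2 came without WT replicate 2.

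Under median-ratio scaling Eno1 had a log2 fold change of -0.0025 and Pkm of -0.0097. With a library left out, the log2 fold change ran from -0.17 to 0.13 for Aldoa, -0.22 to 0.42 for Aldoc, -0.030 to 0.28 for Dlat, -0.090 to 0.15 for Eno1, -0.066 to 0.075 for Gpi1, -0.19 to 0.10 for Hk2, -0.011 to 0.35 for Ldha, -0.25 to 0.28 for Ldhb, -0.070 to 0.18 for Pdk1, -0.17 to 0.076 for Pdp1, -0.27 to 0.054 for Pgam1, -0.068 to 0.088 for Pkm, -0.25 to 0.069 for Rpe, -0.045 to 0.33 for Rpia and -0.028 to 0.13 for Tkt. The cause was not tested for any of these changes beyond the loss of a library that the fit itself makes. Each share difference moved by less than 1 SD of its libraries. Depth limits Ldhb, at 4 to 10 reads a library, whose interval spans -0.78 to 0.80 on the log2(RPKM + 1) scale.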
